A study of Mus musculus with 4 samples.

Results

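Genes that drive DNA replication, mitosis and entry into the cell cycle, and genes of the p53 checkpoint that halts it, were examined in cultures of mouse liver macrophages and tumour cells. The list held 41 genes, and the members were all probe sets that the platform annotation gave to 1 of these symbols alone. Of the 41 genes, 40 had at least 1 such probe set, with 98 probe sets in all, out of 18193 genes named on the array. Trp53 was not analysed here. The genes were divided by role into 14 of S phase, 13 of mitosis, 5 cyclins and kinases of G1, and 9 of the checkpoint.

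The arrays measured RNA of Kupffer cells, which are macrophages that live in the liver, together with SL4 cells, a mouse colon carcinoma line, both of C57BL/6 origin. There were 4 groups with 1 array each. In the first pair, Dectin-2 KO (Clec4n-/-) or wild-type (WT) Kupffer cells shared a culture with SL4 cells for 8 hours, and in the second pair KO or WT Kupffer cells and SL4 cells were kept apart for the same time and their RNA was mixed. All Kupffer cells were sorted as CD45+ CD11b+ F4/80+ cells from naive female mice of 12 weeks, and equal numbers of each cell type were put in. The SL4 cells carried the same genotype in every group, so the deletion was present in the macrophages alone. No group has a replicate array, and how many mice gave the Kupffer cells is not given in the sources used here.

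Cells copy their DNA in S phase with the MCM helicase, the clamp PCNA and the enzymes that make nucleotides, and separate it in mitosis under cyclin B with CDK1, the Aurora kinases and PLK1. The D cyclins with CDK4 and CDK6 start the cycle in G1 by releasing E2F factors from the retinoblastoma protein. The transcription factor p53 stops it after damage or stress, mainly through the CDK inhibitor p21, the product of Cdkn1a, and is itself held down by MDM2. The RNA came from both cell types, so the source of a transcript cannot be told apart. Likewise, fewer cells of a type and less RNA per cell give the same reading.

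The promoters of these genes differ by role, and 4 of them are shown because they hold the motifs counted over each group. The letters are the 250 bases before the transcription start in RefSeq's table of build GRCm38.p6, 5′ to 3′ on the strand of the gene. Capitals mark E2F words, the CHR (a short element of mitotic genes), the CCAAT box and a p53 response element, on either strand. Rrm2, for S phase, lies at chr12:24708004-24708253, plus strand, and Cdk1, for mitosis, at chr10:69352913-69353162, minus strand. Gadd45b and Cdkn1a, for the checkpoint, lie at chr10:80929841-80930090, plus strand, and at chr17:29090729-29090978, plus strand; for Cdkn1a this is the first of 2 starts in the table.
Rrm2: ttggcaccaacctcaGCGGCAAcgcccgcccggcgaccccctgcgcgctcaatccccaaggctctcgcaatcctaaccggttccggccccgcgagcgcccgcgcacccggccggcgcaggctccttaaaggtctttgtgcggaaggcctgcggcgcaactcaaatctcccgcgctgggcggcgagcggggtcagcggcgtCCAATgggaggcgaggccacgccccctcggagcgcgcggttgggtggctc
Cdk1: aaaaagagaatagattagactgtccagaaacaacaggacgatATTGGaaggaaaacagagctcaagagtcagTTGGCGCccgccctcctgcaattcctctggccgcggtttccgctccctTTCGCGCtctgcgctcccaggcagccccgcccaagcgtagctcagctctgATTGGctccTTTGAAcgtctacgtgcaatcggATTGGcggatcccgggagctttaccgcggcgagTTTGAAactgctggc
Gadd45b: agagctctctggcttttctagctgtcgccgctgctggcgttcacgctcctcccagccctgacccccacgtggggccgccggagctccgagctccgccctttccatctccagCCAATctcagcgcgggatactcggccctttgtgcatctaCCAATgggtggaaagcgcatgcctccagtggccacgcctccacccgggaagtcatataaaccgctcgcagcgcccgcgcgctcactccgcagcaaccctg
Cdkn1a: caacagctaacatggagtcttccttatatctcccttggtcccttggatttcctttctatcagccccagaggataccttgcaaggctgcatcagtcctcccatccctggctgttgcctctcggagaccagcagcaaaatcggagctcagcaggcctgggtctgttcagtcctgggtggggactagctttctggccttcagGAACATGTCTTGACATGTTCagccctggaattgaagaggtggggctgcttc
Cdk1 holds 2 E2F words, 2 CHR words and 3 CCAAT boxes. Rrm2 holds 1 E2F word and 1 CCAAT box, and Gadd45b 2 CCAAT boxes. In Cdkn1a the only match is the p53 element, which begins 51 bases before the first start. At the second start of Cdkn1a no p53 element and no other motif was found.

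The table held promoters of 35 of the 41 genes, and motifs were counted over 300 bases, from 250 before to 50 after each start. An E2F word (the letters TTCCCGC or the letters TTCGCGC, or else the letters TTGCCGC or the letters TTGGCGC) was found in 8 of 13 promoters of S phase genes, or 61.5%, against 9.57% of all 32851 promoters in the table and 17.2% of those of genes measured here. A CHR word (the letters TTTGAA or the letters TTCGAA) was found in 10 of 11 promoters of mitosis genes, or 90.9%, against 19.2% of all promoters and 13.5% of those of measured genes. CCAAT stood in 10 of 11 mitosis promoters and 10 of 13 S phase promoters, against 37.4% of all. No E2F or CHR word was found in the 4 promoters of G1 genes. A p53 element was taken as 2 adjoining decamers with at most 1 base off the consensus, and none at the fixed C and G of each decamer. It was found in 2 of 11 checkpoint promoters, the first of Cdkn1a and that of Ccng1, against 0.0670% of all promoters. The p53 search and its tolerance were added after the sequences had been seen. On the reverse strand a CCAAT box reads ATTGG and can share letters with the E2F word TTGGCGC. A match is a description of these letters, and no binding was measured.

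Values are probe set signals on a linear scale, which are relative within each array. A gene is given by its brightest probe set, and a signal of 76.1, the median of all probe sets, served as the floor for log2 values. Of the 40 genes with a probe set, 38 were above the floor in all 4 arrays and were tested, among 10646 genes tested. The remaining 2 genes were the CDK inhibitors Cdkn2a, at 11.5 and 10.5 in KO and WT co-culture and 1.26 and 3.78 in KO and WT separate culture, and Cdkn2b, at 12.6 and 12.0 in KO and WT co-culture and 8.38 and 2.44 in KO and WT separate culture. All 8 values lay below the floor and allow no fold. In contrast, all tested S phase members were above 295 and all mitosis members above 1066 in every array.

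Checks of the labels bear on every result. Clec4n, the deleted gene, was under the floor in all 4 arrays, at 8.19 and 17.6 in KO and WT co-culture and 8.29 and 14.2 in KO and WT separate culture. Whether its probe sets lie in the deleted part is not known. The genes of the sorting antigens, Ptprc (CD45), Itgam (CD11b) and Adgre1 (F4/80), were also under the floor in every array. Of 21 macrophage markers with a probe set, 9 were above the floor in all arrays and 11 in none, and their summed signal was 2399 and 2501 in KO and WT co-culture and 2395 and 2067 in KO and WT separate culture. For 14 markers of Kupffer cells, 4 were above the floor in all arrays and 7 in none. The 7 were Clec4f, Vsig4, Timd4, Marco, Folr2, Cdh5 and Clec1b. Among 17 epithelial carcinoma markers 1 was above the floor in all arrays, with Krt8, Krt18 and Cdh1 under it throughout, while 12 of 15 mesenchymal markers were above it, with sums of 38873 and 40590 in KO and WT co-culture and 39735 and 43739 in KO and WT separate culture. Their part in the results below was not tested.

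The first question was how the cycle genes differed between co-culture and separate culture, in RNA of both cell types. Co-culture was set against separate culture in 1 fit over the 4 arrays, with genotype as a block, so that the change in each genotype served as a repeat of the other. The fit assumes that both genotypes change alike and has 1 residual degree of freedom per gene, which limma supplements with the spread of genes of like signal. Of the 38 members, 3 rose and 1 fell at an adjusted p of 0.05. Over all 10646 genes 271 rose, or 2.55%, and 404 fell, or 3.79%, which is 6.34% in either direction. The members that rose were Cdkn1a and Gadd45b of the checkpoint and Cdk6 of G1, and the one that fell was Ccnd3 of G1. None of the 27 genes of S phase and mitosis passed the test. An unadjusted p under 0.05 was reached by 2 of these, 2 of 5 G1 members and 4 of 6 tested checkpoint members. Over all 38 members that was 8, or 21.1%, against 20.4% of all genes tested. When the spread was not allowed to follow signal, 0 members and 46 genes were called, and with genotype left out of the model 0 members and 227 genes, so the calls rest on both features of the fit.

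**Figure D1:**
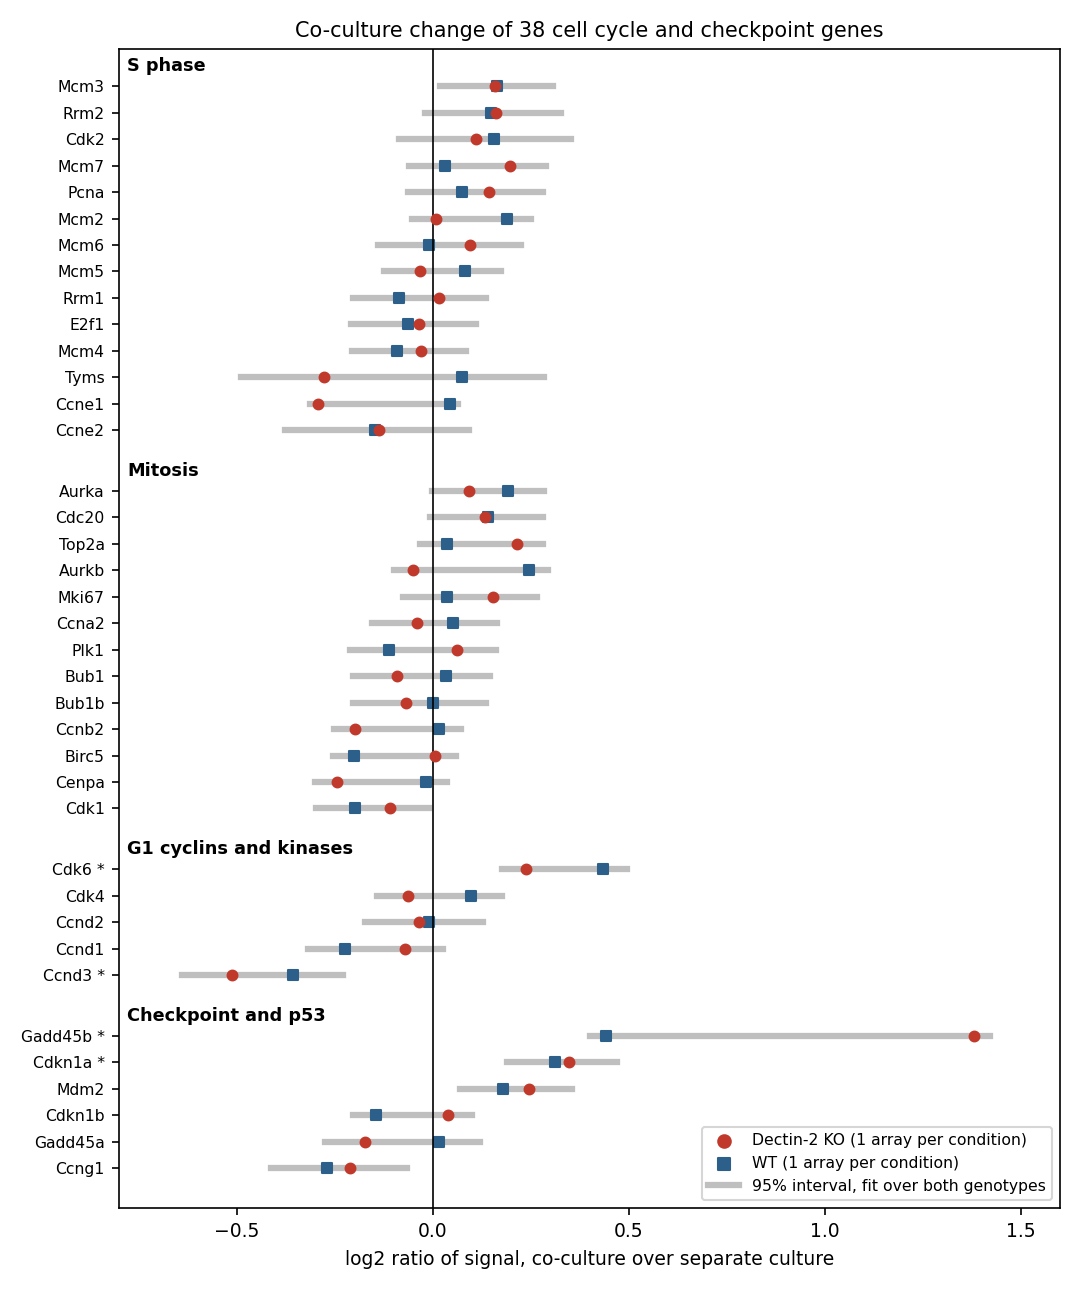
Log2 ratio of co-culture over separate culture for the 38 tested genes, by role, with Dectin-2 KO as circles, WT as squares (1 array per condition each) and the 95% interval of the fit over both genotypes as grey bars; an asterisk marks an adjusted p under 0.05. S phase and mitosis genes lie within 0.30 of 0 in both genotypes, and the called genes are Cdk6, Ccnd3, Gadd45b and Cdkn1a.

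Cdkn1a encodes p21, which binds and blocks the cyclin and CDK pairs of G1 and S phase. Its signal was 3538 in KO co-culture against 2781 in KO separate culture, and 3555 in WT co-culture against 2863 in WT separate culture. Both co-culture arrays lay above both separate arrays, and the ratios of the genotypes were close. The fitted log2 ratio was 0.33 ± 0.06 (SE), 1.26-fold, with an adjusted p of 0.0098. A dimmer probe set of the gene gave log2 ratios of 0.46 in KO and 0.37 in WT.

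Mdm2, the ubiquitin ligase that removes p53 and is one of its targets, read 2495 in KO co-culture against 2103 in KO separate culture, and 2553 in WT co-culture against 2256 in WT separate culture. The fitted log2 ratio of 0.21 ± 0.07 (SE) did not pass the test, with an adjusted p of 0.081 and a 95% interval of 0.07 to 0.35. All 3 probe sets were higher in co-culture in both genotypes, with log2 ratios of 0.14 to 0.44 in KO and 0.17 to 0.37 in WT. Mdm2 was called in 1 of 8 alternative settings, the fit restricted to genes above the floor in all 4 arrays, with an adjusted p of 0.0468. Across the 8 its adjusted p reached 0.35.

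Gadd45b, of a family of small stress proteins and also a target of NF-kappaB, had the highest ratio among the members. It read 216 in KO co-culture against 83.0 in KO separate culture, and 300.2 in WT co-culture against 221 in WT separate culture. Co-culture was higher within each genotype, but the KO co-culture array lay below the WT separate array, so the culture conditions overlapped. The fitted log2 ratio was 0.91 ± 0.23 (SE), 1.88-fold, with an adjusted p of 0.039. The KO ratio of 1.38 rests on the KO separate array, whose signal was near the floor, and without that array the log2 ratio was the 0.44 of WT. The other 2 probe sets gave 0.50 and 0.57 in KO and 0.37 and 0.40 in WT, and with the median signal over probe sets the log2 ratio was 0.48 with an adjusted p of 0.16.

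Its relative Gadd45a, a p53 target, had a fitted log2 ratio of -0.08 (95% interval -0.28 to 0.12), with -0.17 in KO and 0.02 in WT. Ccng1, cyclin G1, which is a p53 target whose promoter holds the element described above, also lay below 0. It read 1119 in KO co-culture against 1294 in KO separate culture, and 1108 in WT co-culture against 1335 in WT separate culture. Both co-culture arrays lay below both separate arrays, and all 3 probe sets were lower in both genotypes. The log2 ratio of -0.24 ± 0.08 (SE) did not pass, with an adjusted p of 0.11. Cdkn1b, the CDK inhibitor p27, was at -0.05 (95% interval -0.20 to 0.10). The checkpoint members lay on both sides of 0, with a median log2 ratio of 0.08 over the 6 tested members of the group against -0.01 over all genes tested.

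**Figure D2:**
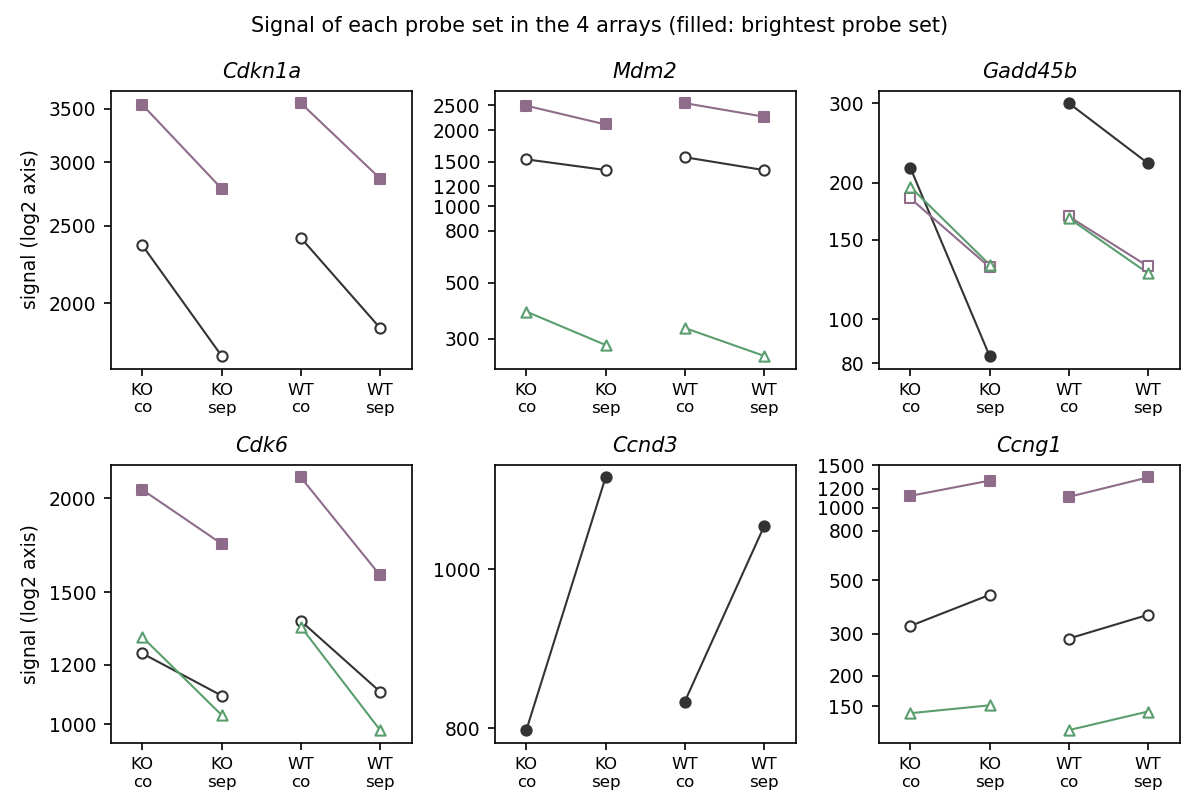
Signal on a log2 axis of every probe set above the floor in all arrays, for 6 members, in the KO and WT co-culture (co) and separate (sep) arrays; filled symbols are the brightest probe set, and lines join arrays of 1 genotype. Cdkn1a, Mdm2, Gadd45b and Cdk6 are higher in co-culture in each line, Ccnd3 and Ccng1 lower, and the brightest Gadd45b probe set drops to 83.0 in KO separate culture.

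In G1, Cdk6 rose and Ccnd3 fell. Cdk6, which with Cdk4 phosphorylates the retinoblastoma protein, read 2054 in KO co-culture against 1740 in KO separate culture, and 2133 in WT co-culture against 1579 in WT separate culture. Both co-culture arrays were above both separate arrays, and the fitted log2 ratio was 0.34 ± 0.07 (SE), 1.26-fold, with an adjusted p of 0.018. All 3 probe sets were higher in both genotypes, by log2 ratios of 0.19 to 0.35 in KO and 0.31 to 0.46 in WT. With the median signal over probe sets the log2 ratio was 0.29 with an adjusted p of 0.089. Cdk4 was at 0.02 (95% interval -0.14 to 0.18).

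Ccnd3, cyclin D3, read 798 in KO co-culture against 1138 in KO separate culture, and 830 in WT co-culture against 1062 in WT separate culture. Both co-culture arrays were below both separate arrays, and the gene fell by 0.43 ± 0.09 (SE) on the log2 scale, or to 0.740 of the separate level, with an adjusted p of 0.018. It rests on 1 probe set, since its other 2 were under the floor in all arrays, and under quantile normalization the adjusted p was 0.052. Ccnd1, cyclin D1, was lower in both genotypes in all 3 of its probe sets, with a log2 ratio of -0.15 (95% interval -0.32 to 0.03) in the brightest, and did not pass the test with that probe set. In the fit over all probe sets a dimmer one passed, at -0.30 with an adjusted p of 0.021. The 7 probe sets of Ccnd2, cyclin D2, were mixed, and the brightest was at -0.02 (95% interval -0.17 to 0.13).

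The S phase genes lay near 0. Their median log2 ratio was 0.03, with 8 of 14 above 0 and a range of -0.14 to 0.16, against a median of -0.01 over all genes tested. Mcm3, a subunit of the helicase that opens DNA for replication, had the highest ratio by the brightest probe set, an _s_at one. With each gene taken as the median signal over its probe sets, Tyms was highest at 0.39 (adjusted p = 0.21), against -0.10 by its brightest probe set. Mcm3 was then at 0.03, below Mcm2, Mcm5, Mcm7, Pcna, Rrm2 and Cdk2 too, although 4 of its 5 probe sets had fitted ratios of 0.13 to 0.23. The brightest probe set of Mcm3 read 4121 in KO co-culture against 3692 in KO separate culture, and 4553 in WT co-culture against 4061 in WT separate culture. The log2 ratio of 0.16 ± 0.07 (SE) did not pass, with an adjusted p of 0.19, and the KO co-culture array at 4121 lay close to the WT separate array at 4061.

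The other helicase subunits Mcm2, Mcm4, Mcm5, Mcm6 and Mcm7 had log2 ratios between -0.06 and 0.11. Pcna, the sliding clamp of DNA polymerase, was at 0.11 (95% interval -0.06 to 0.28). For nucleotide supply, Rrm2, the regulated subunit of ribonucleotide reductase, was at 0.15 (95% interval -0.02 to 0.33), and its partner Rrm1 was at -0.03. The thymidylate synthase gene Tyms was the least certain, with an interval of -0.49 to 0.28 and 4 probe sets that did not point the same way.

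Entry into S phase is driven by cyclin E and CDK2. Ccne2 had the lowest ratio of the group, with -0.14 in KO and -0.15 in WT and an adjusted p of 0.52. Ccne1 had -0.29 in KO and 0.04 in WT. Cdk2 was at 0.13 (95% interval -0.09 to 0.35), and E2f1, which activates replication genes, at -0.05 (95% interval -0.21 to 0.11). Over the 14 genes the 95% intervals of the brightest probe sets reached no further than -0.49 and 0.35. Changes of 2-fold in the RNA of both cell types together lay outside all of them. The intervals hold only if both genotypes change alike and the spread follows signal.

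The mitosis genes also lay near 0, with a median log2 ratio of -0.03, 6 of 13 above 0 and a range of -0.15 to 0.14. Mki67, the proliferation marker Ki-67, read 7248 in KO co-culture against 6520 in KO separate culture, and 7131 in WT co-culture against 6949 in WT separate culture. Its log2 ratio was 0.10 (95% interval -0.07 to 0.27), and Top2a, the topoisomerase that untangles chromosomes, was at 0.13 (95% interval -0.03 to 0.28). Cdk1, the kinase that starts mitosis, lay lowest, at 3317 in KO co-culture against 3578 in KO separate culture, and 3291 in WT co-culture against 3777 in WT separate culture. Its log2 ratio of -0.15 ± 0.07 (SE) did not pass, with an adjusted p of 0.21.

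The cyclins of CDK1, Ccna2 and Ccnb2, were at 0.01 and -0.09. The mitotic kinases Aurka, Aurkb and Plk1 were at 0.14, 0.10 and -0.03. The spindle checkpoint genes Bub1 and Bub1b were at -0.03 each in their brightest probe sets, and Cdc20, which they restrain, was at 0.14 in an _x_at probe set and at -0.01 with the median signal over its 3 probe sets. Birc5, survivin, and Cenpa, the centromeric histone, were at -0.10 and -0.13. For Cenpa the direction depends on the probe set: the other 2 were higher in co-culture in both genotypes, and with the median signal over probe sets the log2 ratio was 0.30 (adjusted p = 0.18). Over the 13 genes the intervals spanned -0.30 to 0.29.

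A dimmer probe set of Bub1 gave another value than the brightest. It read 144 in KO co-culture against 248 in KO separate culture, and 118 in WT co-culture against 224 in WT separate culture, so both co-culture arrays were below both separate arrays. In the fit over all 24189 probe sets it fell by 0.85 ± 0.22 (SE) on the log2 scale, with an adjusted p of 0.029, while the brightest probe set of the gene was at -0.03. In that fit 5 of the 89 member probe sets rose and 3 fell, against 2.44% and 3.03% of all probe sets. The 5 were both of Cdkn1a, 2 of Cdk6 and 1 of Gadd45b, and the 3 belonged to Bub1, Ccnd1 and Ccnd3.

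The largest changes of the members were below the leading changes of the arrays. In KO, 1 of 38 members was at least 2-fold higher in co-culture, Gadd45b, and 0 were at least 2-fold lower, where 0.67% and 0.574% of all genes were. In WT, 0 members were 2-fold apart in either direction, where 0.729% of genes were higher and 0.537% lower. At 1.5-fold the counts stayed at 1 higher and 0 lower in KO, where 2.54% and 4.32% of genes were, and at 0 in WT, where 3.35% and 3.41% were. No member was at least 1.5-fold apart in the same direction in both genotypes, where 1.16% of genes were higher and 1.24% lower. Among 6346 genes with a mean signal of at least 500, 47 were higher and 29 lower by that measure. Of these genes, 169 in KO and 145 in WT were 1.5-fold apart. With 38 members, counts of 0 or 1 cannot be told apart from these shares. The median absolute log2 ratio of the fit was 0.11 over the members, 0.09 over the 6346 genes and 0.12 over all genes tested. The direction was the same in both genotypes for 23 of 38 members, with 14 higher and 9 lower, beside 61.2% of all genes.

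Other genes of the same pathways were drawn from lists chosen with earlier results of these data known. Of 121 such genes tested, 5 rose and 2 fell, and 21 had an unadjusted p under 0.05, or 17.4% against 20.4% of all genes. None of the 7 calls held with the median over probe sets or without an intensity trend, and with genotype left out of the model only that of Plk2 did. In DNA replication 1 of 28 rose and 0 fell, with a median log2 ratio of 0.04. That gene was Orc1, of the complex that marks origins, at 478 in KO co-culture against 278 in KO separate culture, and 496 in WT co-culture against 336 in WT separate culture, a log2 ratio of 0.67 ± 0.16 (SE, adjusted p = 0.032). Its second probe set gave 0.09 in KO and -0.10 in WT. In mitosis 1 of 36 rose and 1 fell, with a median of -0.02. Kif23, a motor of the cleavage furrow, rose by a log2 ratio of 0.32 ± 0.06 (SE, adjusted p = 0.012), and Anln, an actin-binding protein of the same furrow, fell by 0.31 ± 0.07 (SE, adjusted p = 0.026). Ccnb1 was not analysed here.

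Among 22 other regulators of the cycle 1 rose and 1 fell, with a median of -0.05. Btg1, an antiproliferative gene, rose by a log2 ratio of 0.31 ± 0.08 (SE, adjusted p = 0.032), and E2f8, an E2F factor that represses transcription, fell by 0.33 ± 0.07 (SE, adjusted p = 0.014). All probe sets above the floor of Kif23, Anln, Btg1 and E2f8 pointed the same way in both genotypes. Myc, which promotes growth, was at 0.17 ± 0.07 (SE, adjusted p = 0.19), and Foxm1, which activates mitotic genes, at -0.19 ± 0.06 (SE, adjusted p = 0.12).

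Among 23 other p53 targets 2 rose and 0 fell, and the median was -0.09. Plk2, a stress-responsive polo kinase, read 1025 in KO co-culture against 670 in KO separate culture, and 947 in WT co-culture against 602 in WT separate culture. It rose by a log2 ratio of 0.63 ± 0.10 (SE), with an adjusted p of 0.0034. Tnfrsf10b, a death receptor, rose by 0.51 ± 0.11 (SE), with an adjusted p of 0.017. The rest ranged from -0.46 to 0.37 and did not pass. Of 12 genes of damage signalling and its checkpoint 0 rose or fell by limma, with a median of -0.04, and 0 had an unadjusted p under 0.05.

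**Figure D3:**
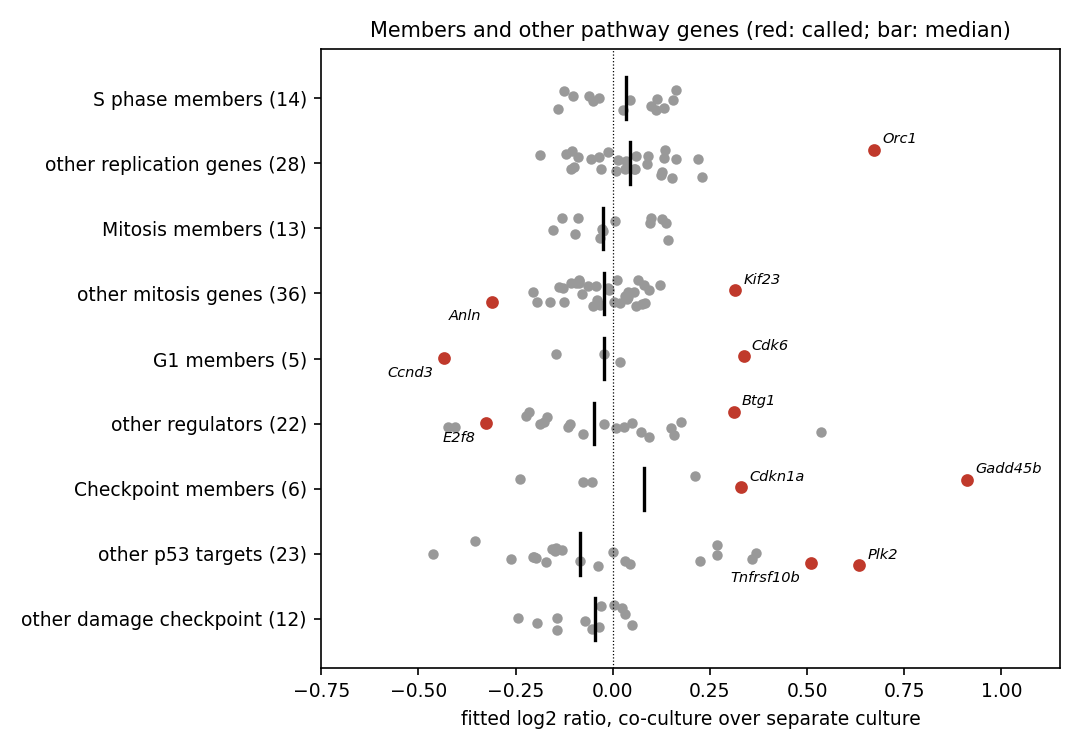
Fitted log2 ratio of co-culture over separate culture for each tested member and for other genes of the same pathways, with the number of genes in brackets; red points have an adjusted p under 0.05 and black bars are medians. Medians lie between -0.09 and 0.08, and 11 genes are called, of which 4 are members.

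The second question was whether loss of Dectin-2 changed these genes. In the fit with culture as a block, 0 of 38 members passed between KO and WT by limma, against 3 of all 10646 genes that were higher in KO (0.0282%) and 0 that were lower (0.0%). At an unadjusted p under 0.05 there were 6 members, or 15.8%, against 995 of all genes, or 9.35%. The 3 genes, named after their values were seen, were Aagab, Dnpep and Myf5, and none belongs to the cell cycle lists. The fitted differences of the S phase members lay between -0.22 and 0.20 on the log2 scale, and those of G1 members between -0.14 and 0.09.

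Bub1b, the spindle checkpoint kinase BubR1, had the lowest adjusted p among the members, 0.12, with a log2 difference of -0.43 ± 0.08 (SE). Its brightest probe set read 1087 in KO co-culture and 1499 in WT co-culture, and 1140 in KO separate culture and 1497 in WT separate culture. Both KO arrays lay below both WT arrays. Its next probe set gave 1167 in KO and 1145 in WT co-culture, and 1187 in KO and 1284 in WT separate culture, so the probe sets disagreed. In the fit over all probe sets the brightest passed at -0.43 with an adjusted p of 0.045, while this dimmer one was at -0.04 (adjusted p = 0.93) and the third at 0.32 (adjusted p = 0.73). Mcm3 was similar, with a called difference of -0.40 (adjusted p = 0.038) in 1 of 5 probe sets of the fit over all probe sets and a fitted difference of 0.19 (adjusted p = 0.41) in another.

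Between KO and WT in co-culture 0 members were 1.5-fold apart, where 1.52% of genes were higher in KO and 1.48% lower, and 0 were 2-fold apart, where 0.144% and 0.0961% were. In separate culture Gadd45b alone was lower in KO past 1.5-fold and 2-fold, where 1.78% of genes were higher and 1.06% lower at 1.5-fold, and 0.0868% and 0.116% at 2-fold. This is the brightest probe set of Gadd45b, with its KO separate array near the floor. The other 2 probe sets of the gene gave log2 ratios of KO over WT of 0.13 and 0.23 in co-culture and -0.0048 and 0.063 in separate culture.

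For the called genes other than Gadd45b, KO and WT differed by at most 0.14 on the log2 scale within each culture condition. The log2 ratio of KO over WT for Cdkn1a was -0.01 in co-culture and -0.04 in separate culture. For Cdk6 it was -0.05 in co-culture and 0.14 in separate culture, and for Ccnd3 -0.06 and 0.10. Taking the WT change from the KO change left 0.04 for Cdkn1a, -0.19 for Cdk6, -0.16 for Ccnd3 and 0.07 for Mdm2. It left 0.94 for Gadd45b in the brightest probe set. These differences of differences have no residual degree of freedom and were not tested.

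**Figure D4:**
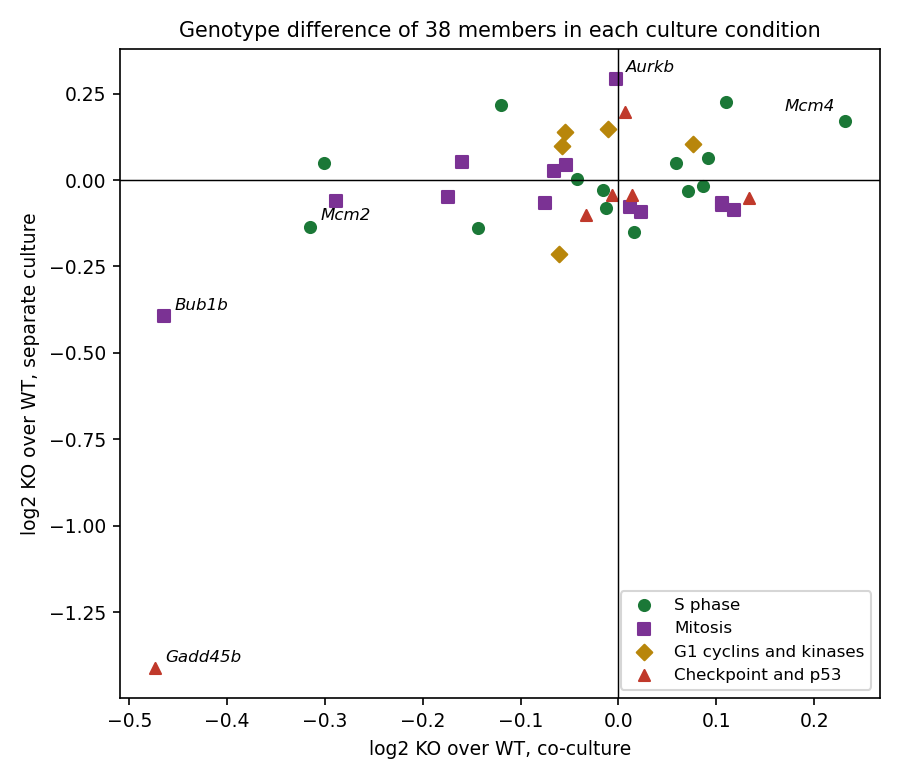
Log2 ratio of KO over WT for the 38 tested members in co-culture (horizontal) and in separate culture (vertical), coloured by role, 1 array per group. Most of the members lie within 0.30 of 0 on both axes, Bub1b is lower in KO in both conditions at -0.46 and -0.39, and Gadd45b is lowest at -0.47 in co-culture and -1.41 in separate culture, in its brightest probe set and in neither of its other 2.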

How the data were processed

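Precision is limited by having 1 array in each of the 4 groups. The deposited values are probe set intensities, made with Affymetrix Expression Console 1.4 and MAS5, per the submitters' processing notes; trimmed means of 497 to 498 were alike in all arrays, so a change in total RNA cannot be seen. cDNA was amplified from 20 ng of RNA, per the labels' protocols. The table held 45037 probe sets, of which 34945 had 1 gene symbol, 932 several and 9160 were not listed in the annotation. Entrez numbers matched 34741 to RefSeq and changed 0 symbols. Of the brightest probe sets of tested members, 10 have IDs ending in _s_at or _x_at, which can bind several transcripts. Signals were floored at 76.1 and log2-transformed, and genes above it in at least 1 array entered lmFit and eBayes with an intensity trend (limma 3.58.1, R 4.3.3), with culture and genotype as terms and Benjamini-Hochberg adjustment over all genes. The code of the fit was run on simulated data made with the fit's own spreads and like changes in both genotypes. That run could not test these assumptions. Pairs of arrays were compared by ratio, with no test. The members, lists and motifs were chosen with earlier results of these data known. All members, Clec4n, Ccnb1, Myc, Foxm1 and up to 5 called genes per list and direction could be named. Promoters could be shown for the 2 members per group with the largest change.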

Additional observations from a re-analysis of the deposited data

Results flagged for a closer look

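In 3 members the co-culture change ran in opposite directions in the genotypes, by at least 0.05 on the log2 scale in each. Tyms, thymidylate synthase, had -0.28 in KO and 0.074 in WT. Plk1, the polo kinase of mitosis, had 0.061 in KO and -0.11 in WT. Cdk4 had -0.063 in KO and 0.10 in WT in its brightest probe set, but 0.067 in KO and -0.16 in WT in a probe set of like signal, and was lower in both genotypes in the third. Of the other 3 Tyms probe sets, 2 were higher in both genotypes. With 1 array per group these differences were not tested.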

How the results depend on the processing

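Every alternative gave each called member the same direction. Cdkn1a was called in 6 of 8 alternatives, Cdk6 in 5 of 8, Ccnd3 in 4 of 7 and Gadd45b in 3 of 8, and Ccnd1 was called with quantile normalization and, in a dimmer probe set, in the fit over all probe sets. Without an intensity trend or without genotype in the model, 0 members were called. Leaving out the arrays of either genotype gave 0.31 to 0.35 for Cdkn1a, 0.24 to 0.43 for Cdk6, -0.51 to -0.36 for Ccnd3 and 0.44 to 1.38 for Gadd45b, with no test. A count of calls needs all 4 arrays. Of the alternative values of named genes, 338 kept their side of the threshold, 34 lost and 2 gained a call. Most of the 338 came from genes that were not called in the report's setting and stayed so. All 34 losses came from the called genes.

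The cause of these moves was not tested. Against 675 genes called for co-culture, there were 275 with the median over probe sets, 46 without an intensity trend, 227 with genotype left out, and 1322 over all probe sets. Against 3 called for genotype, there were 31 without a floor (Bub1b among them), 7 with the floor doubled, 90 over genes above the floor in all 4 arrays (Bub1b and Gadd45b among them), 35 over all probe sets, and 0 by limma with quantile normalization, the median over probe sets, no intensity trend or culture left out (1048, 758, 732 and 385 genes at an unadjusted p under 0.05). The fits over all probe sets and without _s_at and _x_at probe sets were chosen after seeing the data. The 2-fold counts between co-culture and separate culture were 130 in KO and 132 in WT; without a floor they were 270 and 291, with the floor doubled 79 and 75, and at 1.5-fold 716 and 704. Between KO and WT they were 25 in co-culture and 21 in separate culture; without a floor they were 111 and 127, with the floor doubled 3 and 6, at 1.5-fold 312 and 294, and in co-culture 13 with the median over probe sets and 12 above the floor in all 4 arrays. The S phase median, 0.035 in the report's setting, was -0.0074 with quantile normalization. The labels give 1 array per group and no pairing of arrays beyond genotype and culture, which served as blocks.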
